A study of Rattus norvegicus with 16 samples.

Results

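Trim63, Fbxo32 and Cblb encode 3 ubiquitin ligases of muscle, and their RNA was followed in the diaphragm of rats through mechanical ventilation (MV), a sham operation and electrical stimulation (ES). The members were chosen by name, with earlier results of these data known. The array carries 1 transcript cluster (the set of probes for a transcript) for each of them, so all 3 were measured, among 15037 gene symbols in all. The values are array signals on a log2 scale as the authors normalized them, so that a difference of 1 is a doubling, and they come from 16 Clariom S arrays, 1 per rat. The rats were male Wistar rats aged 14 to 16 weeks, 4 per group. E-V12 rats had a tracheostomy, an opened abdomen with hook electrodes in the diaphragm, 12 h of MV and ES throughout. S-V12 rats had the same operation, electrodes and MV with no current applied. V12 rats had the tracheostomy and 12 h of MV. CON rats were not ventilated, and their diaphragms were taken as soon as they were anaesthetized. Isoflurane and then urethane were used, and the E-V12 and S-V12 rats also received supplemental oxygen. V12/CON (V12 against CON) therefore holds MV together with tracheostomy, the hours under anaesthesia and the elapsed time, and S-V12/V12 holds the operation together with oxygen. The effects joined in each cannot be told apart. By design E-V12/S-V12 differs by the current, though labelling controls differed between these groups as well, as given below. By the study's methods the tissue around the electrodes was taken out when specimens were made, in words that do not settle whether it was discarded or was the specimen.

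A ubiquitin ligase brings a target protein to an enzyme loaded with ubiquitin, and a chain of ubiquitin marks the protein for the proteasome. Trim63, also called MuRF1, is a RING-finger ligase that sits on the sarcomere and is known to act on thick-filament proteins. Fbxo32, also called atrogin-1 or MAFbx, is an F-box protein that joins the Skp1-Cul1 ligase complex and is known to act on MyoD and the translation factor eIF3f. Both are standard markers of muscle atrophy, and their genes are known targets of FOXO transcription factors, which Akt holds out of the nucleus when insulin or IGF-1 signals. Cblb belongs to the Cbl family of RING-finger ligases, which act on receptors and signalling adaptors. It is known from T cells, where it restrains activation, and from unloaded muscle, where it is known to act on the insulin receptor substrate IRS-1.

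By the RefSeq annotation of the rat assembly GRCr8, Trim63 (Entrez 140939) lies at chr5:151817209-151831026, Fbxo32 (Entrez 171043) at chr7:91620925-91654491 and Cblb (Entrez 171136) at chr11:62058829-62225904. The promoters of Trim63 and Cblb, from 250 bases before to 50 bases after the start site of the RefSeq table, are shown because the RNAs of both genes were far higher after MV while the windows are unlike each other. The start sites of that table lie 27 bases (Trim63) and 126 bases (Cblb) inside the gene coordinates given above. The promoter of Fbxo32 is named only. Capitals mark matches to any of 6 motifs searched on both strands. FOXO factors are known to bind TGTTTAC. The core element of the glucocorticoid receptor was searched as TGTTCT. The E-box, which binds muscle factors such as myogenin, was searched as CAGCTG. STAT factors are known to bind TTCNNNGAA. The TATA box, which places the start site, was searched as TATAAA. The GC box, common in promoters without such an element, was searched as CCGCCC. The last 2 motifs were added after the windows had been read.
Trim63, GRCr8 chr5:151816986-151817285, plus strand: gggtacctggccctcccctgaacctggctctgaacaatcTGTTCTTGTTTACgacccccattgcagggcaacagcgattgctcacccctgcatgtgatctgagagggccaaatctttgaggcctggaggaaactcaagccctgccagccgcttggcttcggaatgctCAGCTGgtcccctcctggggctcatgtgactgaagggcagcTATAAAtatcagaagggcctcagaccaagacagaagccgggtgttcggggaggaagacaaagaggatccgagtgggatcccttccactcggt
Cblb, GRCr8 chr11:62225729-62226028, minus strand: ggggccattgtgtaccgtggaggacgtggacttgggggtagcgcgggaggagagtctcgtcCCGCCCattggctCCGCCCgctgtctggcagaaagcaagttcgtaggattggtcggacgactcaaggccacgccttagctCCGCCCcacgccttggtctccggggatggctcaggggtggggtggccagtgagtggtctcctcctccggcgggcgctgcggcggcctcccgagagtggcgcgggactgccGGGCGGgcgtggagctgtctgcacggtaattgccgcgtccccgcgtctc

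The Trim63 window held 1 match each of the FOXO, glucocorticoid receptor, E-box and TATA motifs. The glucocorticoid receptor motif began 211 bases before the start site of the table, and the FOXO motif followed it directly, at 205 bases. The E-box began at 83 bases and the TATA box at 42 bases before the start site. Of 33469 RefSeq promoters of this length, 3.78% held the FOXO motif, 20.7% the glucocorticoid receptor motif, 15.1% the E-box and 14.2% the TATA box. The receptor motif stood directly before the FOXO motif on the same strand in 2 of them, of which Trim63 is 1. The arrangement counted is that of the Trim63 window itself, so its rarity is a description and not a test. The Cblb window held 4 GC boxes, a motif found in 33.1% of promoters, and matched none of the other 5 motifs. Its GC content was 69.3%, against 57.0% in the Trim63 window and a median of 51.7% over all promoters. A STAT match, present in 8.87% of promoters, was in neither window.

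The arrays were alike in scale, with medians from 5.57 to 5.73. Between 33.0% and 40.9% of clusters lay above an array's highest background entry, which was between 6.39 and 7.20. Poly-A spike controls, RNAs added before labelling, averaged 5.98 ± 0.19 in E-V12, 6.99 ± 0.14 in S-V12, 6.48 ± 0.37 in V12 and 7.09 ± 0.40 in CON (SD, n = 4 each), and the part of labelling in the results was not tested. On single arrays these controls ran from 5.83 to 6.26 in E-V12 and from 6.86 to 7.20 in S-V12, without overlap. A difference in labelling therefore cannot be told apart from the current in E-V12/S-V12. Of 9 skeletal muscle markers 0 were below background, and their summed signal was 22.65 to 22.80 in E-V12, 22.66 to 22.75 in S-V12, 22.80 to 22.87 in V12 and 22.56 to 22.86 in CON (log2 of the sum). Acta1 and Ckm, which are among these markers, averaged 19.93 in S-V12 (SD 0.0002 each), at the top of the scale. Their sum therefore cannot show whether the share of muscle was equal between groups. The heart muscle markers, 4 of 4, were below background on all 16 arrays. All signals of the 3 ligases were above background. In whole minced diaphragm, fewer cells of a type and less RNA per cell cannot be told apart.

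RNA of all 3 ligases was higher in each ventilated group than in CON, and no array of a ventilated group overlapped with CON for any of them. In each of these comparisons the fold was highest for Cblb and lowest for Fbxo32.

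Trim63 signals were 17.24, 17.96, 18.11 and 17.33 in E-V12, 17.32, 17.69, 17.60 and 17.79 in S-V12, 16.93, 16.86, 17.35 and 17.18 in V12, and 12.54, 13.65, 13.75 and 12.61 in CON. The ventilated groups lay within a narrow band far above CON, and the CON arrays fell into a lower and a higher pair. Trim63 averaged 17.08 ± 0.23 in V12 and 13.14 ± 0.65 in CON (SD, n = 4 each), a log2 change of 3.94 ± 0.27 (SE), or 15.4-fold with a 95% confidence interval of 10.5 to 22.6 (limma, adjusted p = 3.17e-10). It ranked 41 among the 15037 symbols ordered from the highest change down.

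Fbxo32 signals were 18.01, 18.52, 18.01 and 17.38 in E-V12, 18.27, 18.60, 18.64 and 19.00 in S-V12, 18.43, 18.12, 18.79 and 18.32 in V12, and 16.69, 16.46, 16.41 and 16.57 in CON. The CON arrays lay close together and already high on the scale, whose highest entry on any array was 19.9. Fbxo32 averaged 18.41 ± 0.28 in V12 and 16.53 ± 0.12 in CON, a log2 change of 1.88 ± 0.22 (SE) or 3.68-fold (2.67 to 5.08, limma, adjusted p = 2.19e-06), at rank 176. Whether signals this near the top of the scale are compressed was not tested.

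Cblb signals were 14.08, 14.67, 14.14 and 14.30 in E-V12, 15.04, 15.18, 14.76 and 14.82 in S-V12, 13.36, 13.14, 13.92 and 13.61 in V12, and 9.64, 8.58, 8.04 and 7.94 in CON. The 4 groups did not overlap at all, in the order S-V12, E-V12, V12 and CON from high to low. The share of all clusters that separate in this way was counted for V12/CON only, and is given below. The V12/CON change of Cblb was 31.1-fold (20.7 to 46.7, limma, adjusted p = 2.09e-11), at rank 21. Among V12 rats, replicate 3 had the highest and replicate 2 the lowest signal of each ligase.

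**Figure D1:**
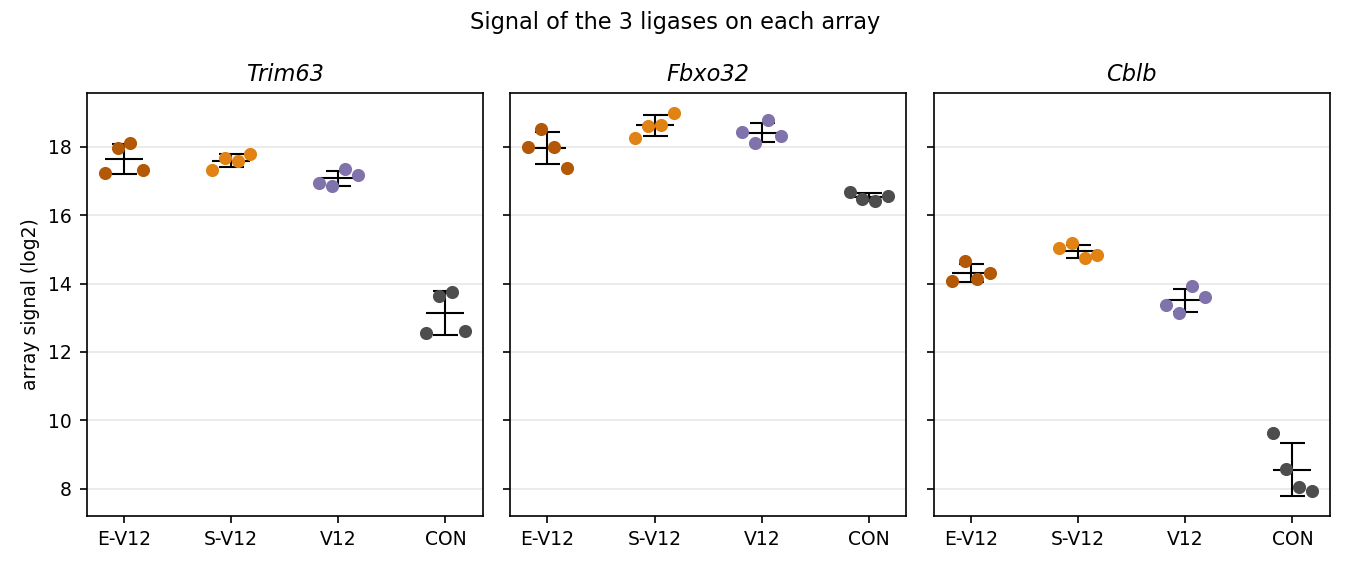
Array signal (log2, y axis) of Trim63, Fbxo32 and Cblb in E-V12, S-V12, V12 and CON (x axis). Points are arrays, 4 a group, and bars are the mean and SD. CON lies below every ventilated array for each gene, and Cblb is separate in all 4 groups.

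All 3 ligases thus passed in V12/CON. Over all 23188 clusters, 7.68% were called higher in this comparison and 8.67% lower, and 7.99% had V12 arrays that all lay above the CON arrays. The same 3 passed in S-V12/CON, where 12.0% of clusters were called higher and 12.8% lower, and in E-V12/CON, where the shares were 10.9% and 12.6%. In S-V12/CON the log2 changes were 4.46 for Trim63, 2.10 for Fbxo32 and 6.40 for Cblb (limma, adjusted p = 1.92e-11, 2.16e-07 and 1.15e-13). In E-V12/CON they were 4.52 for Trim63, 1.45 for Fbxo32 and 5.75 for Cblb (adjusted p = 1.64e-11, 3.40e-05 and 9.25e-13). These comparisons share the 4 CON arrays.

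Fbxo32 rose by less than the other ligases. In V12/CON the log2 change of Cblb exceeded that of Fbxo32 by 3.08 ± 0.36 (SE), and that of Trim63 exceeded Fbxo32 by 2.06 ± 0.39 (exact two-sided permutation test of the within-array difference over 70 splits, p = 0.0286 for each, the smallest possible, adjusted p = 0.0429 over 9 such tests). Cblb exceeded Trim63 by 1.02 ± 0.60, a difference that did not pass (exact p = 0.143, adjusted p = 0.161). The changes are those of each gene's own probes, whose response may differ, and this was not tested.

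The sham operation with oxygen separated Cblb from the other members. In S-V12/V12 Cblb rose again, to 14.95 ± 0.19 in S-V12 against 13.51 ± 0.34 in V12 (SD, n = 4 each), a log2 change of 1.44 ± 0.28 (SE) or 2.71-fold (1.81 to 4.07, limma, adjusted p = 0.00118). All 4 S-V12 arrays were above all 4 V12 arrays. Trim63 averaged 17.60 ± 0.20 in S-V12 and 17.08 ± 0.23 in V12, a difference of 0.52 ± 0.27 (SE, 95% confidence interval -0.04 to 1.07, adjusted p = 0.220). Fbxo32 averaged 18.63 ± 0.30 in S-V12 and 18.41 ± 0.28 in V12, a difference of 0.21 ± 0.22 (-0.25 to 0.68, adjusted p = 0.601). So 1 of 3 members was called higher, beside 8.05% of all clusters, and 0 of 3 lower, beside 6.66%. The log2 change of Cblb exceeded that of Trim63 by 0.92 ± 0.17 and that of Fbxo32 by 1.22 ± 0.23 (exact permutation test, p = 0.0286 for each, the smallest possible, adjusted p = 0.0429). Trim63 exceeded Fbxo32 by 0.30 ± 0.11 (exact p = 0.0571, adjusted p = 0.0735), which did not pass.

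With current applied, none of the 3 genes passed the test. In E-V12/S-V12 Cblb averaged 14.30 ± 0.26 in E-V12 and 14.95 ± 0.19 in S-V12 (SD, n = 4 each), a difference of -0.65 ± 0.28 (SE, 95% confidence interval -1.24 to -0.07, limma, unadjusted p = 0.0309, adjusted p = 0.239). All 4 E-V12 arrays were below all 4 S-V12 arrays. How many of all clusters separate in this way in E-V12/S-V12 was not counted. Fbxo32 averaged 17.98 ± 0.47 in E-V12 and 18.63 ± 0.30 in S-V12, a difference of -0.65 ± 0.22 (-1.12 to -0.18, unadjusted p = 0.00841, adjusted p = 0.122). Here 1 E-V12 array, at 18.52, lay inside the S-V12 range, and the other 3 lay below it. Trim63 averaged 17.66 ± 0.44 in E-V12 and 17.60 ± 0.20 in S-V12, a difference of 0.06 ± 0.27 (-0.49 to 0.61, adjusted p = 0.944), whose sign turned when single arrays were left out (-0.088 to 0.20). The intervals of Cblb and Fbxo32 thus run past a difference of 1 log2 unit. Over all clusters, limma called 1.19% higher and 1.51% lower, and 0 of 3 members in either direction, while 2 of 3 were lower at an unadjusted p under 0.05, as were 8.84% of all clusters, with 7.75% higher. The shares of called clusters rest on 628 calls, which became 74 to 1182 with single arrays left out and 1541 with array weights. The methods' t-test at a fold of 2 and an unadjusted p under 0.05 also gave 0 of 3.

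The change of Trim63 with current nonetheless differed from those of the other ligases. In E-V12/S-V12 the change of Trim63 lay 0.71 ± 0.22 (SE) above that of Fbxo32, and the change of Cblb lay 0.71 ± 0.26 below that of Trim63 (exact permutation test, adjusted p = 0.0429 for each). The unadjusted p of this exact test was 0.0286 for each, the smallest that 70 splits allow. The changes of Cblb and Fbxo32 differed by -0.00 ± 0.29 (exact permutation test, p = 1).

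E-V12/V12 sets stimulated rats against rats ventilated without the operation. Cblb was 0.79 ± 0.28 (SE) higher in E-V12 (95% confidence interval 0.20 to 1.37, limma, adjusted p = 0.0912), with no overlap between the groups. The adjusted p fell to 0.0369 when only these 2 groups were fitted, to 0.0272 with array weights and to 0.0183 when CON replicate 1 was left out. Trim63 differed by 0.58 ± 0.27 (0.02 to 1.13, adjusted p = 0.211) and Fbxo32 by -0.44 ± 0.22 (-0.90 to 0.03, adjusted p = 0.275). With 4.75% of clusters called higher and 3.81% lower, 0 of 3 members passed. Among the ventilated groups, then, no pair passed for Trim63 or Fbxo32, and for Cblb the pair that passed was S-V12 and V12.

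**Figure D2:**
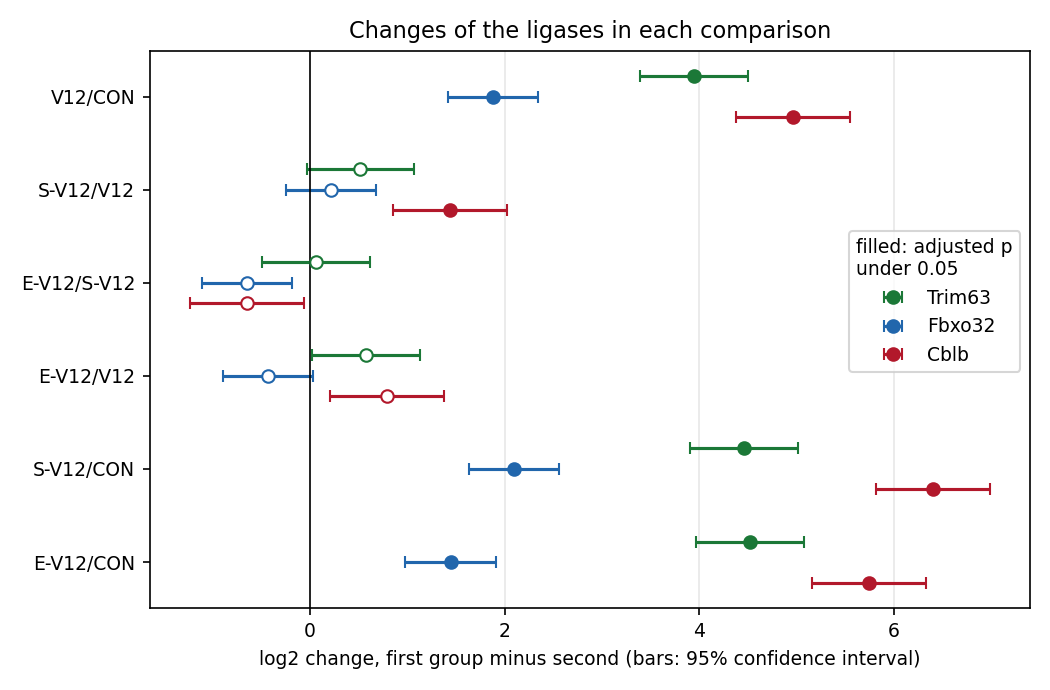
Log2 change (x axis, first group minus second) of the 3 ligases in each comparison (y axis), with 95% confidence intervals from limma. Filled points have an adjusted p under 0.05: all 3 genes against CON, and Cblb in S-V12/V12 at 1.44.

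Of the close relatives measured, 0 were called higher and 2 fell in V12/CON, while Trim54 was called higher in E-V12/CON. Trim55 and Trim54 are the other MuRF proteins of muscle, Fbxo25 is the F-box protein most like Fbxo32, and Cblc is a Cbl protein known from epithelia. Trim55 signals were 9.42, 9.18, 8.49 and 9.25 in E-V12, 9.05, 9.44, 9.65 and 8.51 in S-V12, 8.98, 8.62, 8.43 and 7.96 in V12, and 11.45, 10.84, 10.76 and 10.81 in CON. Every ventilated array was below every CON array. In V12/CON Trim55 fell to 8.50 ± 0.42 in V12, against 10.97 ± 0.33 in CON, 5.54-fold lower (log2 change -2.47 ± 0.27 SE, limma, adjusted p = 5.28e-07).

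Fbxo25 signals were 7.27, 7.42, 7.64 and 7.58 in E-V12, 7.98, 7.74, 7.36 and 7.69 in S-V12, 7.84, 7.38, 7.54 and 7.91 in V12, and 9.22, 8.27, 8.11 and 8.91 in CON. It was lower in V12 than in CON by 0.96 on the log2 scale, 1.95-fold, with separate groups (SE 0.23, limma, adjusted p = 0.00473, 0.122 with the methods' t-test). Trim54 averaged 15.98 ± 0.20 in E-V12, 15.53 ± 0.29 in S-V12, 15.31 ± 0.19 in V12 and 15.08 ± 0.25 in CON. Its V12/CON difference was 0.23 ± 0.20 (SE, adjusted p = 0.499), and its 4 E-V12 arrays lay above the S-V12 arrays without passing the test (0.46 ± 0.20, adjusted p = 0.231). Trim54 was higher in E-V12 than in CON by 0.90 ± 0.20 (SE, limma, adjusted p = 0.00125), with separate groups. It was also higher in E-V12 than in V12 by 0.67 ± 0.20 (adjusted p = 0.0336), a call that was lost with the methods' t-test (0.0623) and with E-V12 replicate 1, 2 or 3 or V12 replicate 1, 2 or 4 left out (0.0515 to 0.107). Cblc was below background on all 16 arrays. Of the 4 relatives measured, 0 were called higher and 2 lower in V12/CON, and 0 in either direction in S-V12/V12 and E-V12/S-V12. Over all clusters 7.68% were called higher and 8.67% lower in V12/CON, and 8.05% and 6.66% in S-V12/V12. In E-V12/S-V12 these shares were 1.19% and 1.51%. Trim55 passed in S-V12/V12 (0.89, adjusted p = 0.0341) once S-V12 replicate 4 was left out, against 0.67 (adjusted p = 0.101) with all arrays.

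**Figure D3:**
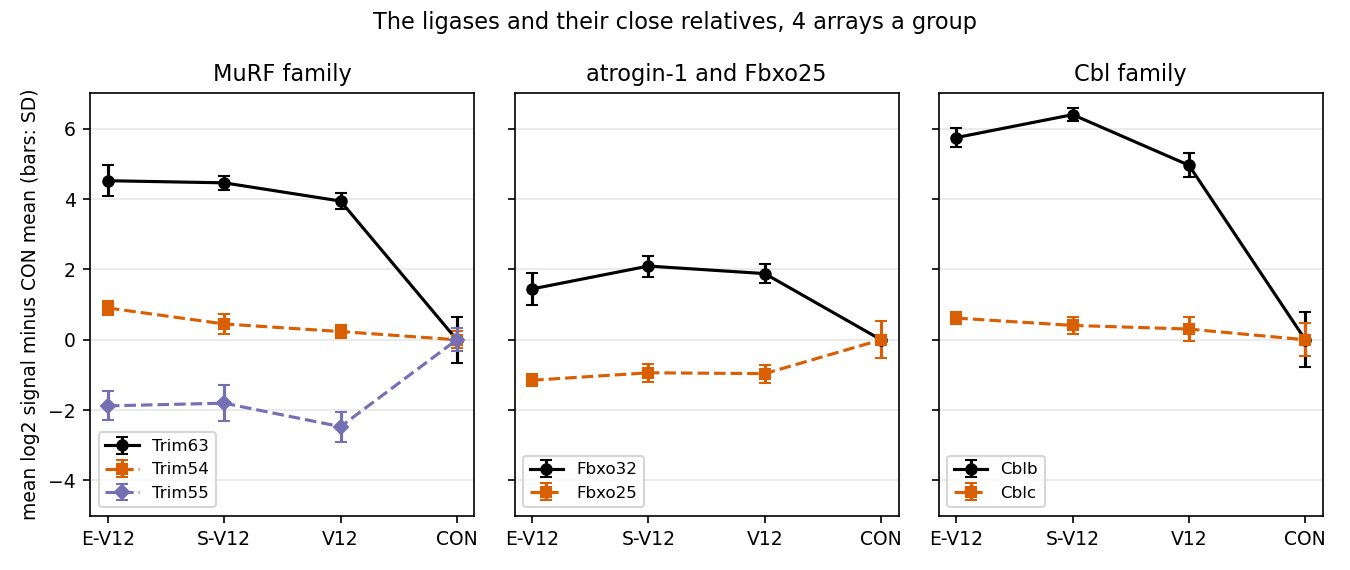
Mean log2 signal minus the CON mean (y axis, bars SD, 4 arrays a group) of each ligase and its relatives in E-V12, S-V12, V12 and CON (x axis). Trim63 is 3.94 above CON in V12 while Trim55 is 5.54-fold lower, and Fbxo25 lies below CON in each ventilated group.

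Other ligases of muscle moved both ways. Of 14 measured, 1 was called higher and 3 lower in V12/CON, where 7.68% of all clusters were called higher and 8.67% lower, with a median change of -0.44 against 0.03 over all clusters. Fbxo31, an F-box protein, rose by 0.73 ± 0.20 (SE, limma, adjusted p = 0.0130). Those that fell were Ubr2, an N-end-rule ligase described in cachectic muscle (-1.23 ± 0.20, adjusted p = 0.000130), Klhl40, a Kelch protein that stabilizes thin-filament proteins (-1.92 ± 0.39, adjusted p = 0.00104), and Asb2 (-1.29 ± 0.42, adjusted p = 0.0375). The Asb2 call was lost with only these 2 groups fitted (0.0533) and with any of replicates 2, 3 and 4 of V12 or of CON left out (0.0616 to 0.160). In S-V12/V12 3 were called higher and 2 lower, beside 8.05% and 6.66% of all clusters, with a median of 0.15. Klhl40 averaged 13.13 ± 0.94 in S-V12 and 9.76 ± 0.51 in V12, 10.4-fold higher (adjusted p = 4.57e-06), and so moved against its fall in V12/CON. Traf6, a ligase of inflammatory signalling, rose by 0.93 ± 0.22 (adjusted p = 0.00476) and Itch by 0.79 ± 0.17 (adjusted p = 0.00219). Asb2 fell by 2.15 (SE 0.42, adjusted p = 0.00115, 0.107 with the methods' t-test) and Fbxo31 fell by 0.79 (SE 0.20, adjusted p = 0.00875). In E-V12/S-V12 0 of 14 passed, where 1.19% of all clusters were called higher and 1.51% lower. Against CON, 4 were higher and 3 lower in S-V12 (12.0% and 12.8% of all clusters), and 3 were higher and 6 lower in E-V12 (10.9% and 12.6%).

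The machinery around the ligases was followed in a pair of lists. Of all clusters, 7.68% were called higher and 8.67% lower in V12/CON, and 8.05% and 6.66% in S-V12/V12. In E-V12/S-V12 these shares were 1.19% and 1.51%. Of 7 partners of the Skp1-Cul1 complex that Fbxo32 joins, 0 passed in V12/CON (median 0.07) and 0 in E-V12/S-V12 (median 0.35). In S-V12/V12 (median -0.28) Cand1, which exchanges F-box proteins on Cul1, rose by 0.77 ± 0.23 (SE, adjusted p = 0.0239), and Cops5, which removes Nedd8 from cullins, fell by 1.03 (SE 0.20, adjusted p = 0.00123). The Cand1 call was lost without S-V12 replicate 2 (adjusted p = 0.0772), V12 replicate 2 (0.0611) or V12 replicate 3 (0.0825). Upstream of the ligases, 8 genes of ubiquitin activation and conjugation were measured. In V12/CON Ube2b rose by 0.67 ± 0.19 (adjusted p = 0.0164, 0.0728 with only these 2 groups fitted, and 0.0510 to 0.0690 with CON replicate 3, V12 replicate 2 or V12 replicate 4 left out), while Ube2d1 fell by 1.19 (SE 0.23, adjusted p = 0.000608) and Uba1 by 0.96 (SE 0.21, adjusted p = 0.00259, 0.104 with the methods' t-test). The median of the 8 was 0.18.

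Uba1, the enzyme that activates ubiquitin for nearly all ligases, passed in V12/CON, S-V12/V12 and E-V12/S-V12, and did not pass in E-V12/CON (-0.13 ± 0.21 SE, limma, adjusted p = 0.730). Its mean was 12.84 ± 0.15 in E-V12, 13.66 ± 0.10 in S-V12, 12.02 ± 0.20 in V12 and 12.97 ± 0.50 in CON. It was thus lower in V12 than in CON, 3.13-fold higher in S-V12 than in V12 (limma, adjusted p = 1.62e-05), and 1.77-fold lower in E-V12 than in S-V12 (adjusted p = 0.0407). This last call was lost with any single E-V12 or S-V12 array, or V12 replicate 2, left out (0.0521 to 0.144). Of the 8 genes, Ube2j2 also rose in S-V12/V12 (0.67 ± 0.20, adjusted p = 0.0269, 0.0767 with the methods' t-test, and 0.0676 to 0.106 with S-V12 replicate 3 or 4 or V12 replicate 2 or 3 left out) and Ube2b fell (-0.85 ± 0.19, adjusted p = 0.00326), with a median of 0.17 over the list. In E-V12/S-V12 Uba1 was the only call of the list, whose median was -0.05. Over all clusters 1.19% were called higher and 1.51% lower there, and 8.05% and 6.66% in S-V12/V12.

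Most regulators known to raise the ligases rose with MV. Of 24 measured, 15 were called higher and 4 lower in V12/CON, with a median change of 1.74. Over all clusters 7.68% were called higher and 8.67% lower, with a median of 0.03. The list was drawn up with earlier results of these data known. Foxo1, a FOXO factor of muscle wasting, had signals of 15.89, 16.92, 15.97 and 16.20 in E-V12, 17.00, 16.92, 16.89 and 16.61 in S-V12, 16.41, 15.91, 16.08 and 15.83 in V12, and 10.46, 11.11, 11.51 and 9.41 in CON. CON was far below all ventilated arrays. Foxo1 was 43.3-fold higher in V12 than in CON (log2 change 5.44 ± 0.32 SE, limma, adjusted p = 3.31e-11). Foxo3 rose by 1.26 ± 0.27 (adjusted p = 0.00200, 0.0524 with the methods' t-test), while Foxo4 fell by 0.95 (SE 0.21, adjusted p = 0.00247, 0.0770 with the methods' t-test).

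Other rises in this group were those of Cebpd, a factor of the acute phase (5.97 ± 0.24), Myog, a muscle factor known to act on both Trim63 and Fbxo32 after denervation (3.28 ± 0.26, with 2 of 4 CON arrays below background), Mapk14, a stress kinase (2.98 ± 0.20), and Stat3 (8.01-fold), with adjusted p from 4.31e-14 to 4.81e-09. Against them stood Nr3c1, the glucocorticoid receptor, which fell to 9.71 ± 0.37 in V12, against 12.37 ± 0.24 in CON, 6.31-fold lower (limma, adjusted p = 2.13e-09). The others that fell were Acvr2b, a receptor for myostatin (at least 1.55-fold lower, adjusted p = 0.000104, with all V12 arrays and 1 CON array below background, 0.0631 with the methods' t-test), and Nfkb1 (-0.73 ± 0.23, adjusted p = 0.0283, 0.0670 with only these 2 groups fitted, and 0.0588 to 0.102 with CON replicate 1 or 4 or V12 replicate 1, 3 or 4 left out). Foxo4, Acvr2b and Nfkb1 were named after their values had been seen, because they complete the count of 4.

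In S-V12/V12 11 of the 24 were called higher and 0 lower, with a median of 0.68 against -0.05 over all clusters. The shares of all clusters called there were 8.05% higher and 6.66% lower. At a fold of 2 and an unadjusted p, the methods' t-test gave 6. Foxo3 signals were 11.01, 12.49, 12.00 and 12.32 in E-V12, 12.50, 12.64, 12.33 and 12.65 in S-V12, 11.38, 11.12, 11.33 and 11.19 in V12, and 10.29, 10.57, 9.67 and 9.43 in CON. In S-V12 all 4 arrays lay above V12, and Foxo3 was 2.42-fold higher (limma, adjusted p = 0.00248). Il6r, the interleukin-6 receptor, rose by 2.10 ± 0.24 (SE), Stat3 by 1.83 ± 0.24, Tnfrsf1a, a receptor for TNF, by 1.64 ± 0.26 (adjusted p from 4.24e-06 to 0.000132), and Mapk14 was 2.82-fold higher (adjusted p = 2.29e-05). Il6 passed as well (adjusted p = 0.00349), but lay below background on all arrays of both groups. Foxo1 differed by 0.79 ± 0.32 without passing (adjusted p = 0.103), with separate groups. In E-V12/S-V12 0 of 24 passed, with a median of -0.19, while 2 were called lower with only these 2 groups fitted. Over all clusters the main model called 1.19% higher and 1.51% lower there.

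Regulators known to restrain the ligases moved both ways with MV. Of 14 measured, 4 were called higher and 5 lower in V12/CON, with a median of 0.13. Over all clusters the shares were 7.68% and 8.67%. With the methods' t-test 2 stayed lower. Ppargc1a, the coactivator PGC-1alpha, which holds back FOXO activity, fell to 8.60 ± 1.34 in V12, against 12.97 ± 0.45 in CON, 20.7-fold lower (limma, adjusted p = 1.33e-07). Bmpr1a, a BMP receptor, fell by 1.34 (SE 0.21, adjusted p = 5.53e-05). The others called lower, named after their values had been seen to complete the count of 5, were Insr (-0.83 ± 0.23, adjusted p = 0.0129), Akt1 (-0.75 ± 0.22, adjusted p = 0.0177) and Bmp7 (adjusted p = 0.0339). The signals of Bmp7 were all below background in V12 and CON. Without CON replicate 1 none of these others passed (adjusted p = 0.0539 for Insr, 0.0694 for Akt1 and 0.0638 for Bmp7). The Akt1 call was also lost with CON replicate 4 or V12 replicate 3 left out (0.0597 to 0.0615), the Bmp7 call with CON replicate 3 or 4 or V12 replicate 2 or 3 left out (0.0607 to 0.137), and all of them with the methods' t-test (0.164 to 0.183). With only these 2 groups fitted, Akt1 (0.0616) and Insr (0.0528) did not pass, and Bmp7 did not with array weights (0.0549). Junb, known to oppose atrophy, averaged 10.21 in V12 and was at least 11.9-fold higher than in CON (adjusted p = 4.63e-10), where all 4 arrays were below background. A bound of this kind sets each such array at its lowest signal above background. Smad1, which carries BMP signals, was higher by 4.83-fold (adjusted p = 4.87e-08), Nfkbia, the inhibitor of NF-kappaB, 3.99-fold (adjusted p = 2.25e-05), and Pik3r1, a subunit of PI 3-kinase, 2.41-fold (adjusted p = 0.000296).

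In S-V12/V12 4 of the 14 rose and 0 fell, with a median of 0.53, and array median centring raised the count to 7. Of all clusters, 8.05% were called higher there and 6.66% lower. Those that rose were Igf1r, the IGF-1 receptor (1.95 ± 0.27 SE, limma, adjusted p = 3.37e-05), Junb (2.19 ± 0.34, adjusted p = 0.000120), Insr, the insulin receptor (1.21 ± 0.23, adjusted p = 0.000716), and Smad1 (1.11 ± 0.21, adjusted p = 0.000833). In E-V12/S-V12 2 of 14 were called lower and 0 higher, with a median of -0.41, beside 1.51% and 1.19% of all clusters. Akt2, the Akt of insulin-responsive tissue, averaged 13.55 ± 0.17 in E-V12 and 14.41 ± 0.12 in S-V12 (-0.86 ± 0.19, adjusted p = 0.0184, 0.0766 without E-V12 replicate 3 and 0.0509 without E-V12 replicate 4). Mtor, the growth kinase downstream of Akt, averaged 10.54 ± 0.17 in E-V12 and 11.35 ± 0.22 in S-V12 (-0.81 ± 0.22, adjusted p = 0.0489, 0.0508 with the methods' t-test). The Mtor call was lost with any single E-V12 or S-V12 array left out, with V12 replicate 2, 3 or 4 and with CON replicate 3 or 4 (0.0509 to 0.157).

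**Figure D4:**
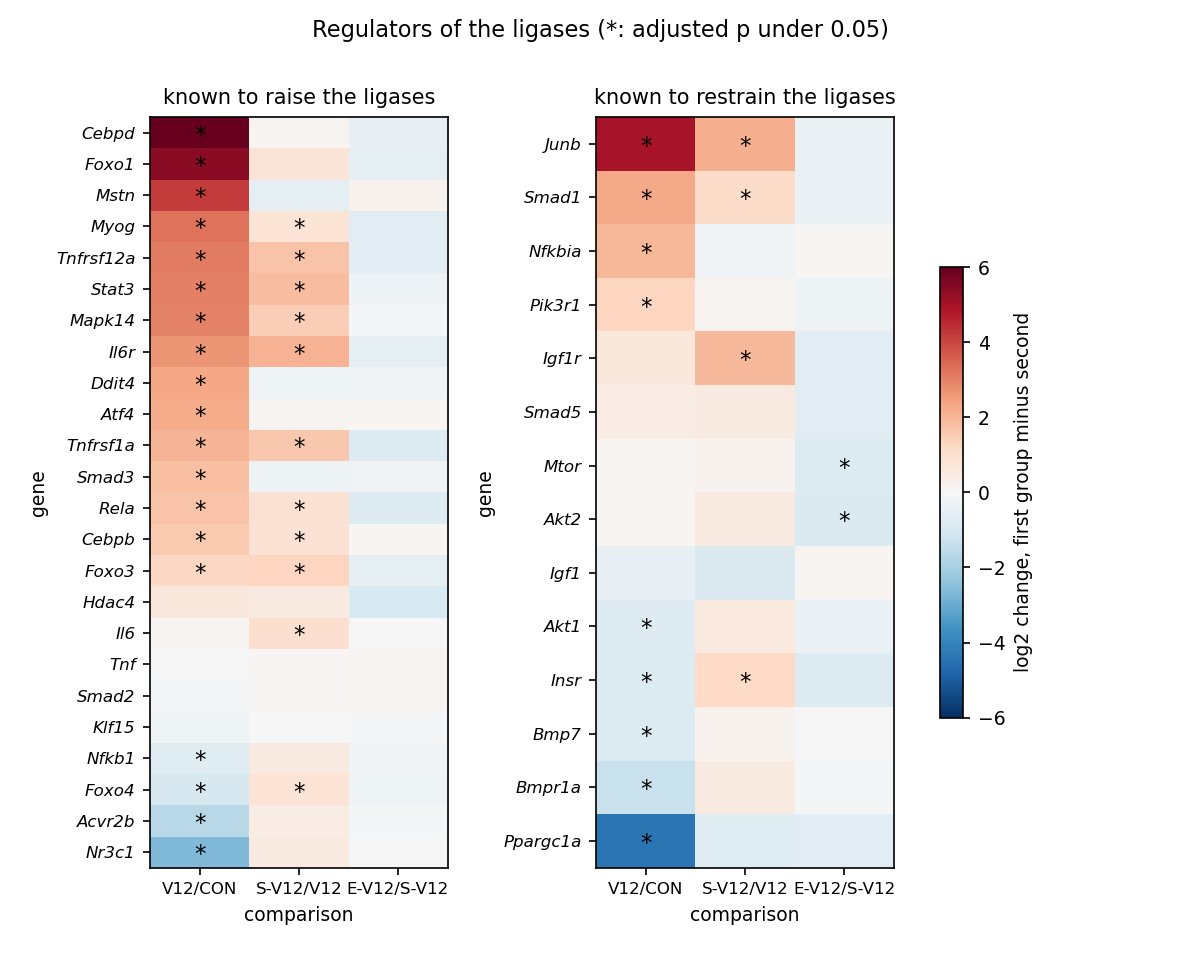
Log2 change (colour, first group minus second) of 24 genes known to raise the ligases and 14 known to restrain them (y axis) in V12/CON, S-V12/V12 and E-V12/S-V12 (x axis), sorted by the V12/CON change. Stars mark an adjusted p under 0.05, with 15 higher and 4 lower on the left in V12/CON. Measured changes are drawn also where a group lay below background.

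Among 19 proteins described as substrates or partners of the members, 0 were called higher and 3 lower in V12/CON, with a median of -0.02. Over all clusters 7.68% were called higher and 8.67% lower. Irs1, the described substrate of Cblb in muscle, fell to 8.54 ± 0.37 in V12, against 10.83 ± 0.61 in CON, 4.86-fold lower (limma, adjusted p = 1.05e-06). Ppara, a lipid-sensing receptor described as a substrate of Trim63, was 8.24-fold lower (adjusted p = 7.20e-08). Myod1, the described substrate of Fbxo32, was called lower (adjusted p = 0.000202), with all V12 and CON arrays below background. Arrays measure RNA, and the proteins themselves were not analysed here. In S-V12/V12 2 were called higher (Ppara and Myod1, adjusted p = 0.0360 and 0.0260, 0.183 and 0.0684 with the methods' t-test, and both lost with single S-V12 or V12 arrays left out, at 0.0525 to 0.139 and 0.0716 to 0.0929) and 2 lower, with a median of -0.03. Those that fell encode fast-fibre proteins, while the fast myosin heavy chains of the list, Myh1 (0.04), Myh2 (0.06) and Myh4 (-0.09), did not pass. Their S-V12 means of 19.92, 19.67 and 19.63 lay near the top of the scale. Tnni2, a troponin, fell by 1.01 (SE 0.17, adjusted p = 0.000232) and Myl1, a myosin light chain, by 0.64 (SE 0.17, adjusted p = 0.0103). In E-V12/S-V12 0 of 19 passed, with a median of -0.02. Over all clusters 1.19% were called higher and 1.51% lower there, and 8.05% and 6.66% in S-V12/V12.

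Markers of other cells were set beside these results because lymphocytes also use Cblb. Of 10 T and B cell markers, 8 were below background on all 16 arrays, among them Cd3d, Cd3e, Cd3g and Cd8a, and 0 passed in V12/CON, S-V12/V12 or E-V12/S-V12. Their summed signal was 7.83 to 7.98 in E-V12, 7.71 to 7.97 in S-V12, 7.93 to 8.24 in V12 and 8.08 to 8.39 in CON, most of it from markers below background, and the part of these cells in the Cblb result was not tested. Macrophage and neutrophil markers did move, some of them from below background. Their summed signal was 10.6 to 11.7 in E-V12, 10.6 to 11.7 in S-V12, 9.82 to 11.1 in V12 and 8.60 to 9.58 in CON. Of 9 measured, 4 were called higher in V12/CON (Cd68, Mrc1, Cd163 and Cd14) and 1 lower (Adgre1, below background on all arrays), and 2 higher in S-V12/V12 (Cd14 and Itgam), with 0 in E-V12/S-V12. Below background were Cd68 and Cd14 on 4 of 4 CON arrays, Cd14 on 2 of 4 V12 arrays and Cd163 on 2 of 4 CON arrays. Itgam was below it on 4 of 4 V12 and 2 of 4 S-V12 arrays. At the bound, Cd68 was at least 1.23-fold higher in V12/CON, and Itgam at least 1.04-fold higher in S-V12/V12. The V12 mean of Cd14 (6.04) lay below its CON mean at the bound (6.64), so no rise was left. The V12/CON count of these markers was 0 with the methods' t-test. Of all clusters, 7.68% were called higher and 8.67% lower in V12/CON, and 8.05% and 6.66% in S-V12/V12. In E-V12/S-V12 these shares were 1.19% and 1.51%. The part of macrophages and neutrophils in the ligase results was not tested either.

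Of 6 endothelial markers, Pecam1 was called higher in V12/CON (0.85 ± 0.27 SE, adjusted p = 0.0311, 0.0593 with only these 2 groups fitted, and 0.0920 to 0.116 with CON replicate 1 or V12 replicate 1 or 3 left out) and lower in E-V12/S-V12 (-1.08 ± 0.27, adjusted p = 0.0322, 0.0894 with the methods' t-test, and 0.0506 to 0.112 with any E-V12 array or S-V12 replicate 2, 3 or 4 left out). Pecam1 was below background on 2 of 4 CON arrays and 1 of 4 E-V12 arrays. The list as a whole did not rise with Pecam1. The median change of the 6 markers was -0.48 in V12/CON and -0.57 in E-V12/S-V12. Cdh5, Kdr and Tek were called lower in E-V12/CON. The summed endothelial signal was 10.03 to 10.57 in E-V12, 10.5 to 11.1 in S-V12, 9.83 to 11.8 in V12 and 11.1 to 11.7 in CON. Of 8 fibroblast and smooth muscle markers, Tagln and Myh11 were called lower in V12/CON, and Pdgfra, a marker of fibroblasts, was 3.42-fold higher in S-V12 than in V12 (adjusted p = 0.00162). Tagln was below background on 3 of 4 V12 arrays and Myh11 on 2 of 4. The summed signal of the 8 markers was 16.8 to 17.7 in E-V12, 17.0 to 17.7 in S-V12, 16.5 to 17.2 in V12 and 14.9 to 16.8 in CON. This sum mostly follows Dcn, which averaged 16.66 in V12, where the next highest marker, Col1a2, averaged 12.15. The median change of the 8 markers was -0.72 in V12/CON, -0.03 in S-V12/V12 and -1.57 in E-V12/CON. In E-V12/CON 2 were called higher and 5 lower, beside 10.9% and 12.6% of all clusters. Of the 9 skeletal muscle markers, Pvalb fell in S-V12/V12 (-0.88 ± 0.20, adjusted p = 0.00331), and 0 passed in V12/CON or E-V12/S-V12. Markers at the top of the scale, such as Acta1 and Ckm, had little room to rise. Heart muscle markers gave 0 calls in these comparisons. Of all clusters, 7.68% were called higher and 8.67% lower in V12/CON, and 8.05% and 6.66% in S-V12/V12. In E-V12/S-V12 these shares were 1.19% and 1.51%.

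Genes with the most similar pattern were taken as the 5 of highest Pearson correlation with each ligase across the 16 arrays, which share their normalization and the large step between the ventilated groups and CON. The correlations are a description, and the changes below were part of them. For Trim63 they were Mrpl41, a mitochondrial ribosomal protein (r = 0.992), Pdk4, a kinase that shuts down pyruvate oxidation (0.984), Fgf2, a growth factor (0.984), Cp, which encodes ceruloplasmin (0.983), and Foxo1 (0.981). Their V12/CON changes were 5.97 for Mrpl41, 4.23 for Pdk4, 2.21 for Fgf2, 3.15 for Cp and 5.44 for Foxo1. In S-V12/V12 the first 4 changed by 0.12 to 0.39 and Foxo1 by 0.79, and 0 of the 5 passed.

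For Cblb they were Errfi1, an inhibitor of EGF receptor signalling (r = 0.992), Zfp36, which destabilizes cytokine RNAs (0.991), Sec24a, a coat protein of secretory vesicles (0.989), Slk, a kinase (0.989), and Fzd4, a Wnt receptor (0.989). Their V12/CON changes were 6.06 for Errfi1, 6.81 for Zfp36 (below background on 3 of 4 CON arrays), 3.68 for Sec24a, 2.15 for Slk and 3.84 for Fzd4. In S-V12/V12 all 5 lay above 0, from 0.76 for Slk to 1.73 for Errfi1. All 5 also averaged lower in E-V12 than in S-V12, such as Fzd4 at 16.53 against 17.39 and Slk at 13.75 against 13.90.

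For Fbxo32 the correlations were lower: the cluster that the array's annotation assigns to Mir22 (r = 0.958), Myog (0.935), Ubald1 (0.934), Mical2, an enzyme that oxidizes actin (0.929), and Slc15a4, a transporter of lysosomes (0.928). Their V12/CON changes were 2.03 for Mir22, 3.28 for Myog, 2.76 for Ubald1 (both below background on 2 of 4 CON arrays), 3.54 for Mical2 and 1.91 for Slc15a4. In S-V12/V12 these genes lay on both sides of 0, from -0.13 for Mical2 to 0.81 for Myog. In E-V12/S-V12 all 5 lay below 0, from -0.57 for Slc15a4 to -1.07 for Ubald1. Trim63 and Cblb correlated with each other at 0.959, Cblb and Fbxo32 at 0.910 and Trim63 and Fbxo32 at 0.894.

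**Figure D5:**
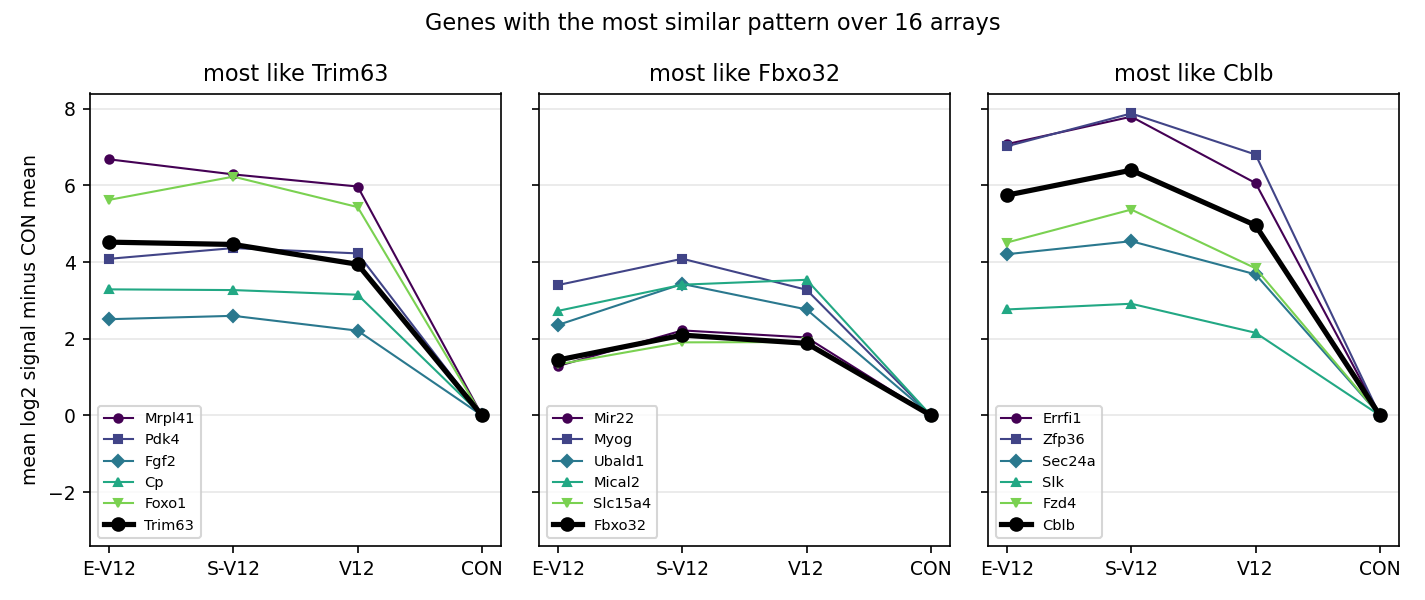
Mean log2 signal minus the CON mean (y axis) in E-V12, S-V12, V12 and CON (x axis) for each ligase (thick black line) and the 5 genes most like it over 16 arrays. The genes most like Cblb are highest in S-V12, and those most like Cblb or Fbxo32 are lower in E-V12 than in S-V12.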

How the data were processed

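Diaphragm RNA of 16 rats was hybridized to Clariom S arrays. The deposited values are log2 signals of transcript clusters that the authors normalized by SST-RMA in Transcriptome Analysis Console, and they were used as they stood. No RMA version was found in the sources used here. The signals run from 1.57 to 19.9. Of 24834 entries, 1646 controls were left out, which left 23188 clusters, 15049 of them with 1 gene symbol in GEO's platform annotation. The cluster of highest mean stood for a symbol.

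Limma 3.58.1 in R 4.3.3 fitted 1 model of the 4 group means to all clusters, using empirical Bayes variances. Its p-values are two-sided and were adjusted per comparison over all clusters (Benjamini-Hochberg), and calls used an adjusted p under 0.05. The model was tested on simulated data. Differences between ligases were tested by exact permutation over 70 splits. Each rat is 1 array, so the p-values measure the spread between rats, and precision is limited by the small number of arrays. A gene was below background where its signal did not pass the array's highest background entry.

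The members and the 13 gene lists were chosen with earlier results of these data known. The lists were close relatives, other ligases of muscle, Skp1-Cul1 partners, ubiquitin and conjugating enzymes, regulators that raise or restrain the ligases, substrates and partners, and markers of skeletal muscle, T and B cells, macrophages and neutrophils, endothelium, fibroblasts and smooth muscle, and heart muscle. Listed genes without a cluster were not analysed here. Named genes were the members, all relatives, up to 6 genes past the threshold per list and comparison by smallest adjusted p, and the 5 genes most correlated with each member. A few more were named to complete a count.

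The alternatives were limma on the 2 groups compared, array weights, trend and robust variances, the methods' t-test with adjustment, array median centring, quantile normalization, the lowest 25% of mean signal left out, 1 cluster per symbol, Tukey biweight averages, a replicate block and each array left out. The methods' t-test at a fold of 2 and an unadjusted p under 0.05 was chosen after the data had been seen.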

Additional observations from a re-analysis of the deposited data

Results flagged for a closer look

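Of 272 groups of 4 arrays over 68 named genes, 17 had an array whose gap to the nearest other exceeded Dixon's 95% critical value as a share of the group's range. Chance alone flags about 1 in 20 groups. None of the 12 groups of Trim63, Fbxo32 and Cblb was among them. Among their relatives, Trim55 stood out in CON replicate 1 at 11.45, against 10.76 to 10.84 on the other arrays, and Trim54 in S-V12 replicate 1 at 15.10, against 15.63 to 15.70.

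In the ubiquitin and regulator lists, the lone arrays were those of Uba1 in S-V12 (13.81), Ube2d1 in S-V12 (14.41), Mapk14 in V12 (14.51), Cebpd in V12 (13.83), Il6r in E-V12 (11.91), Il6 in E-V12 (4.73, below background) and Ppargc1a in CON (12.30). Among substrates and markers they were Myl1 in V12 (19.87), Irs1 in S-V12 (8.13), Pvalb in CON (18.93), Pecam1 in E-V12 (6.30) and in CON (6.23), and Myh11 in CON (7.92). Of the genes with a similar pattern, Fgf2 in E-V12 (13.49) and Zfp36 in CON (8.31) stood out. CON replicate 1 held the lone value of Trim55, Pecam1 and Zfp36, and also the highest Cblb signal of its group.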

How the results depend on the processing

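The 18 changes of the 3 ligases were refitted under 486 alternatives in all. Of these, 480 were kept, 3 passed where the main model did not and 3 turned the sign. Kept means the same direction and the same side of the threshold. Tukey biweight averages give no p-value, so they counted as kept where the change moved by less than the SD within groups. Cblb in E-V12/V12 passed with only the 2 groups fitted (0.79), with array weights (0.85) and without CON replicate 1, and leaving out single arrays gave 0.66 to 0.93. Trim63 in E-V12/S-V12 turned sign, between -0.088 and 0.20 with single arrays left out. The cause was not tested.

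Counts of called clusters moved more. In E-V12/S-V12, 628 clusters became 1316 with the 2 groups only, 1541 with array weights, and 74 to 1182 with single arrays left out. The methods' t-test with adjustment called 1482 in V12/CON (3791 in the main model), 882 in E-V12/V12 (1984) and 3534 in E-V12/CON (5448). At a fold of 2 with an unadjusted p it called 1766 in V12/CON, 1429 in S-V12/V12 (3410), 873 in E-V12/V12, 2909 in S-V12/CON (5744) and 2695 in E-V12/CON.

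Among relatives, Fbxo25 in S-V12/V12 (0.02) became -0.035 with quantile normalization and -0.073 to 0.13 with single arrays left out. Cblc there (0.10) became -0.06 with biweight averages and -0.063 to 0.20 with arrays left out. Trim55 in E-V12/S-V12 (-0.08) became 0.05 with biweight averages and -0.30 to 0.12 with arrays left out.

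Replicate numbers did not pair the arrays: 1 of 24 same-numbered pairs correlated above 0.1 (range -0.09 to 0.11), and 3 of 16 arrays correlated best with their own number. With the replicate block, 673 clusters were called in E-V12/S-V12 and 3721 in V12/CON, and no call of the 3 ligases changed, while Mtor lost its call in E-V12/S-V12 (adjusted p = 0.0573).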
